A study of Mus musculus with 2 samples.

Results

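The interferon regulatory factors (IRFs) are a family of transcription factors, and 8 of their genes, Irf1, Irf2, Irf3, Irf4, Irf5, Irf7, Irf8 and Irf9, were followed here. They were chosen by name among the 46095 gene symbols of the deposited count table, and all 8 were found in it. The study sequenced RNA of mouse macrophages with and without TIPE1, a lipid-binding protein of the TNFAIP8 family encoded by Tnfaip8l1, and its title names macrophage polarization as the subject. The KO library came from C57BL/6 mice whose genotype is labelled TIPE1-/-, and the series' design text describes floxed Tipe1 alleles together with LyzM-Cre, a Cre recombinase expressed from the Lyz2 locus in myeloid cells. The WT library came from C57BL/6 mice labelled wild type, described there as carrying the floxed alleles without Cre. In both, marrow cells of femur and tibia were cultured for 5 days with 100 ng/ml M-CSF, the growth factor that turns marrow progenitors into macrophages, and no interferon or microbial stimulus is named.

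Each genotype had 1 library. Nothing below can therefore be set against the spread of replicates, and no p-value was computed. Intervals are 95% counting intervals and cover counting error only. The KO library held 15815956 counted reads and the WT library 11782664, and they are called KO and WT from here on. Levels are given as CPM, reads per 1e6 of the TMM-scaled library. Tnfaip8l1 had 3 reads in KO and 21 in WT, and Lyz2, whose locus carries the Cre, stood at 8028 CPM in KO against 14958 CPM in WT. All 11 core macrophage markers had reads in both libraries, among them Csf1r at 2414 CPM in KO and 2646 CPM in WT. Markers of stromal cells differed most among the cell type lists, with 18 of 19 tested markers lower in KO, beside 7.23% of all tested genes. Their summed level was 179 CPM in KO against 2054 CPM in WT. The stromal marker Tagln had no read in either library. The part of these stromal cells in the Irf differences was not tested.

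All IRFs share a DNA-binding domain that recognises GAAA repeats, the core of the interferon-stimulated response element (ISRE) found before many antiviral genes. Irf3 and Irf7 are activated by the kinases TBK1 and IKK-epsilon after viral or bacterial sensing and switch on type I interferon genes. Secreted interferon then acts through its receptor to form ISGF3, a complex that contains STAT2 and IRF9 and raises Irf7 and other interferon-stimulated genes. Irf1 and Irf2 compete for the same elements as activator and antagonist. Irf5 drives inflammatory cytokine genes, Irf4 is tied to alternative activation of mouse macrophages, and Irf8 guides monocyte and macrophage development together with PU.1.

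The promoter windows searched for these genes differed in the elements they held. The stretches with a match are shown because they hold letters known from binding sites of STAT or IRF proteins. The 250 bases before each RefSeq start (GRCm38.p6) were searched on both strands for GAAANNGAAA (ISRE core), TTCNNNGAA (gamma-activated site, bound by STAT dimers) and GGGNNTTTCC (a kappa B element). All 8 genes had a promoter in the RefSeq table. Matches were found in Irf1, Irf2 and Irf8, while the windows of Irf3, Irf4, Irf5, Irf7 and Irf9 held none of these letters. RefSeq and GENCODE M21 starts differ for some genes. Both Irf9 windows (chr14:55603735-55603984 and chr14:55604329-55604578) lie inside the GENCODE gene, which starts at 55603571. The bases before that Irf9 start were not searched. The Irf2, Irf4 and Irf7 windows reach partly into their GENCODE genes. No match overlapped another. Capitals mark the matches, read 5′ to 3′ on each gene's own strand. The Irf1 stretch (chr11:53769904-53769952, plus strand) holds a gamma-activated site, the first Irf2 stretch (chr8:46739495-46739549, plus strand) an ISRE core and then a gamma-activated site, the second Irf2 stretch (chr8:46739708-46739744, plus strand) a kappa B element, and the Irf8 stretch (chr8:120736167-120736233, plus strand) 2 gamma-activated sites.
Irf1: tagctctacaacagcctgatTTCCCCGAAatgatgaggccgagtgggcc
Irf2, first: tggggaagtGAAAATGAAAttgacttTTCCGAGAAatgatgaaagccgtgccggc
Irf2, second: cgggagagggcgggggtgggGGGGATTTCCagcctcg
Irf8: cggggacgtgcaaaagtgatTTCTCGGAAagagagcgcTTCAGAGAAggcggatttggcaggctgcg
Among the 32851 promoter windows of the table, 2.98% held GAAANNGAAA, 7.02% held TTCNNNGAA and 1.41% held GGGNNTTTCC. The Irf7 window (chr7:141266425-141266674, minus strand) is shown whole, since Irf7 had the largest difference of the family.
Irf7: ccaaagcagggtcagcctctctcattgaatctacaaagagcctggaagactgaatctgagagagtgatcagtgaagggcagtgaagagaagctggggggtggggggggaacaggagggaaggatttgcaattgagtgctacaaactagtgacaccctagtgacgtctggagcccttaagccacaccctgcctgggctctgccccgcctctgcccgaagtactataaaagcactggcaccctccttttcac

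The family did not move as a block. Irf7 was higher in KO, Irf5, Irf1 and Irf9 were higher by at most 1.24-fold, and Irf8 and Irf3 were slightly lower. The intervals of Irf2 and Irf4 included a ratio of 1. Thus 4 of 8 members had an interval above 1 and 2 an interval below 1, beside 22.8% and 18.4% of all tested genes. All 8 genes passed the filter of 1 CPM as the mean of both libraries. A gene counted as higher or lower if it differed by at least 1.5-fold with an interval that left out 1. By that rule 1 of 8 members was higher, 0 were lower and 7 were neither, against 6.47% higher and 7.23% lower among 12495 tested genes. The count of members lies near that background. At 2-fold or more, 0 of 8 members were called, against 2.59% of tested genes higher and 4.78% lower. Among the 8379 genes that averaged 10 CPM or more, which leaves out Irf4, the background was 4.92% higher and 2.66% lower. Log2 ratios had 0.5 CPM added to both sides. The median log2 ratio of the members was 0.07, beside 0.01 over all tested genes, and it was -0.01 when libraries were scaled by total counts. In bulk RNA, fewer cells of a type and less RNA per cell cannot be told apart.

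**Figure D1:**
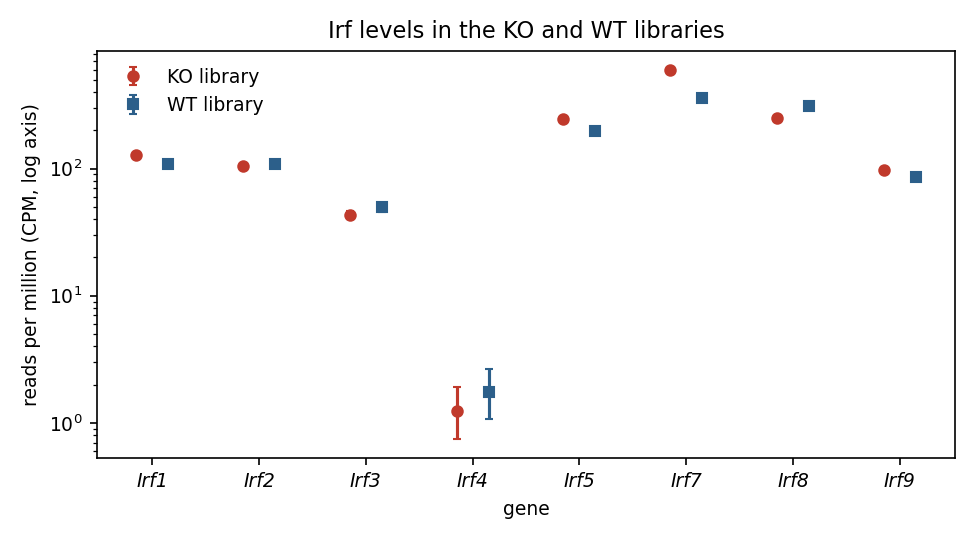
Level of each Irf gene in CPM (log axis) in KO (circles) and the WT library (squares), with exact 95% Poisson intervals that are hidden by most markers. Irf7 stands at 592 CPM in KO against 359 CPM in WT, and Irf4 lies far below the others at 1.23 CPM in KO and 1.74 CPM in WT.

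**Figure D2:**
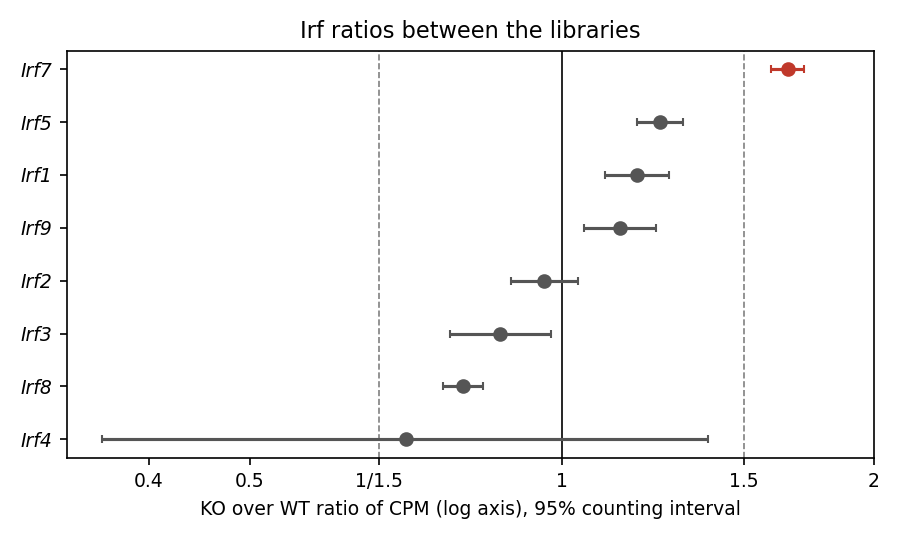
Ratio of CPM, KO over WT, for each Irf gene (log axis), with 95% counting intervals and dashed lines at 1.5-fold in both directions. The Irf7 ratio of 1.65 is the one beyond a dashed line with an interval that excludes 1, and the wide interval of Irf4 crosses 1.

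Irf7, which amplifies the type I interferon response (ENSMUSG00000025498, protein-coding, chromosome 7, 141262706 to 141266481 on the minus strand of GRCm38), had 9139 reads in KO and 4332 in WT. That is 592 CPM against 359 CPM, a ratio of 1.65 (1.59 to 1.71) and a log2 ratio of 0.72. Of all tested genes, 95.7% had a lower log2 ratio. Irf7 was also the member with the highest CPM in both libraries. The whole of its interval lay above 1.5-fold, and its ratio ran from 1.57 to 1.66 over the other scalings and a KO library thinned to the WT depth.

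Irf3, the constitutive partner of Irf7 that starts interferon transcription (chromosome 7, 44997648 to 45002848, plus strand), did not follow it. It had 668 reads in KO and 599 in WT, or 43.3 CPM against 49.6 CPM, a ratio of 0.873 (0.781 to 0.976). The ratio of Irf7 to Irf3 reads within a library does not depend on the scaling between libraries. It was 13.7 in KO and 7.23 in WT, a 1.89-fold difference (1.68 to 2.13).

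Irf9, the DNA-binding subunit of ISGF3 (chromosome 14, 55603571 to 55610030, plus strand), had 1501 reads in KO and 1032 in WT. Its level was 97.3 CPM against 85.4 CPM, with a ratio of 1.14 (1.05 to 1.23). Within a library, Irf9 reads per Irf3 read were 2.25 in KO and 1.72 in WT, which differ 1.30-fold (1.14 to 1.497). Irf9 was thus above Irf3 by more in KO, but less so than Irf7.

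The activator Irf1 and its antagonist Irf2 separated slightly. Irf1, which interferon gamma induces (chromosome 11, 53770014 to 53778374, plus strand), had 1974 reads in KO and 1307 in WT, 128 CPM against 108 CPM, a ratio of 1.18 (1.10 to 1.27). Irf2 (chromosome 8, 46739732 to 46847458, plus strand) had 1603 reads in KO and 1304 in WT, 104 CPM against 108 CPM, a ratio of 0.962 (0.894 to 1.04). There were 1.23 Irf1 reads per Irf2 read in KO and 1.002 in WT, a 1.23-fold difference (1.11 to 1.36). With total counts the Irf2 interval lay below 1, at a ratio of 0.916 (0.851 to 0.986).

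Irf5 and Irf8, the other abundant members, went in opposite directions by similar amounts. Irf5, the factor of inflammatory cytokine genes (chromosome 6, 29526625 to 29541871, plus strand), had 3771 reads in KO and 2373 in WT. That is 244 CPM against 196 CPM, a ratio of 1.24 (1.18 to 1.31), with 84.3% of tested genes at a lower log2 ratio. Irf8, the monocyte and macrophage lineage factor (chromosome 8, 120736358 to 120756694, plus strand), had 3840 reads in KO and 3742 in WT. Its level was 249 CPM against 309.8 CPM, a ratio of 0.803 (0.768 to 0.841) or 1.24-fold lower (1.19 to 1.30), with 84.8% of tested genes at a higher log2 ratio. Neither interval reached 1.5-fold.

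Irf4, a factor of lymphocytes, dendritic cells and alternatively activated macrophages (chromosome 13, 30749226 to 30766976, plus strand), was close to the lower limit of what could be measured. It had 19 reads in KO and 21 in WT, or 1.23 CPM (0.741 to 1.92) against 1.74 CPM (1.08 to 2.66). The ratio of 0.708 (0.360 to 1.38) left a difference undetectable at this depth. The within-library ratios that use Irf4 were as imprecise. Irf8 reads per Irf4 read differed 1.13-fold (0.579 to 2.23) and Irf5 reads per Irf4 read 1.76-fold (0.897 to 3.46), so both intervals included 1.

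**Figure D3:**
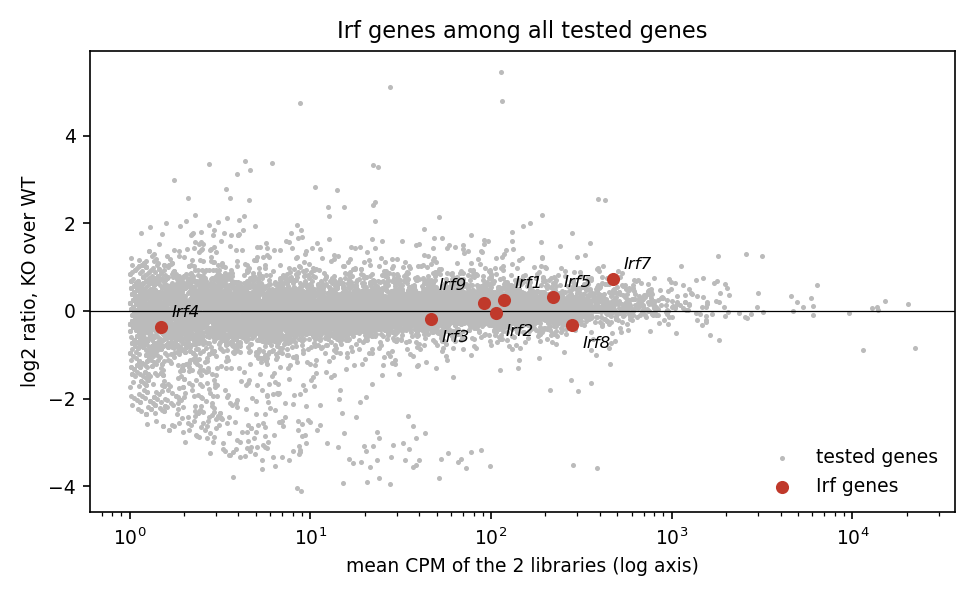
Log2 ratio, KO over WT, against the mean CPM of both libraries (log axis) for 12495 tested genes (grey) and the 8 Irf genes (red). Irf7 lies near the upper edge of genes of its level at 0.72, and the other Irf genes lie between -0.37 and 0.31, inside the grey cloud.

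Summed over the 8 genes, the family stood at 1459 CPM in KO and 1218 CPM in WT. Without Irf7 the sums were 867 CPM in KO and 859 CPM in WT, so nearly all of the difference in the sum was Irf7. To compare one member with another, CPM was divided by the union exon length of GENCODE M21. On that scale of CPM per kb, Irf7 led in both libraries, at 157 in KO and 94.99 in WT. Irf5 came next at 84.1 CPM per kb in KO and 67.6 in WT. Irf8 followed at 35.3 CPM per kb in KO and 43.9 in WT, and Irf1 at 32.2 in KO and 27.2 in WT. A lower group held Irf9 at 18.1 CPM per kb in KO and 15.9 in WT, Irf2 at 14.05 in KO and 14.6 in WT, and Irf3 at 12.6 in KO and 14.4 in WT. Irf4 was last at 0.251 CPM per kb in KO and 0.355 in WT. The order from Irf7 to Irf4 was the same in both libraries. The neighbours Irf2 and Irf3 did not differ beyond their counting intervals in either library, nor did Irf9 and Irf2 in WT. With the longest transcript as the length, Irf2 moved above Irf9 in both libraries, and in WT Irf8 moved above Irf5 and Irf3 above Irf9.

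Of the summed CPM per kb, Irf7 made up 44.4% in KO and 34.0% in WT. The share of Irf8 was 9.98% in KO and 15.7% in WT, while that of Irf5 was 23.8% in KO and 24.2% in WT. The distance between Irf8 and Irf1 narrowed to 1.10-fold in KO, against 1.61-fold in WT. The shares depend on the length used. With the longest transcript, the Irf7 share was 36.8% in KO and 26.8% in WT. The Irf8 share was then 14.5% in KO and 21.7% in WT, and the Irf5 share 22.0% in KO and 21.3% in WT.

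**Figure D4:**
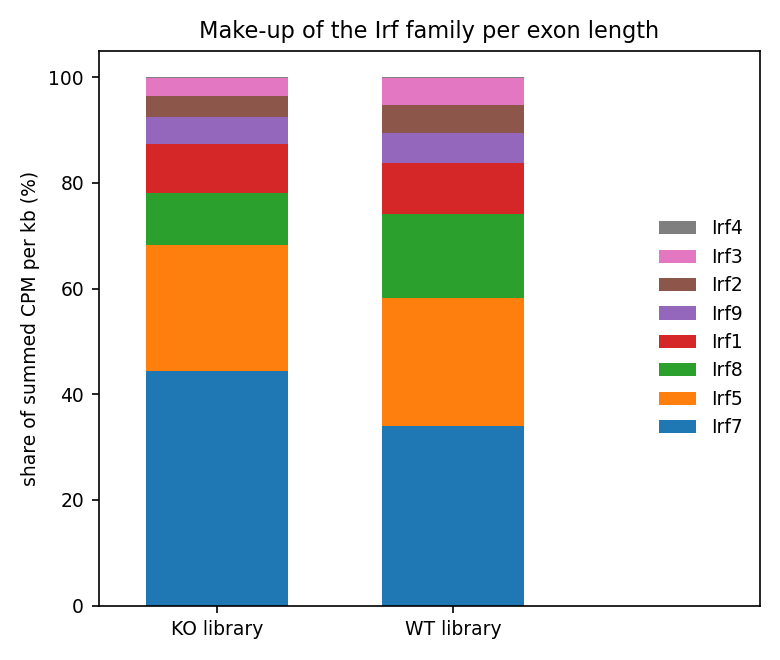
Share of each Irf gene in the summed CPM per kb of union exon length of the 8 genes, in percent, in KO (left) and the WT library (right). The Irf7 segment takes 44.4% in KO against 34.0% in WT, and the Irf8 segment 9.98% in KO against 15.7% in WT.

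Several Irf genes share bases with a neighbour, and the strand setting of the counting is not given in the sources used here. Irf5 shares 411 exonic bases, 14.1% of its union exons, with Tnpo3 on the opposite strand, a nuclear import receptor gene at 74.9 CPM in KO and 72.6 CPM in WT. Irf7 shares 45 bases with Phrf1 on the opposite strand, at a ratio of 1.04 (0.961 to 1.14). Irf9 shares 123 bases with Rnf31 on the same strand, at a ratio of 0.978 (0.887 to 1.08), so no strand setting separates that pair. Irf3 shares 88 bases with Bcl2l12 on the opposite strand, which had 69 reads in KO and 48 in WT. The ratio intervals of these 4 neighbours all included 1. Irf1 shares 135 bases with Gm17334 on the opposite strand, which was not analysed here.

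The genes around the IRFs were grouped by their place in the pathway. Among 28 sensors, adaptors and kinases that activate IRFs, all tested, 6 were higher, 0 lower and 22 neither, beside 6.47% higher and 7.23% lower over all tested genes. At 2-fold or more, 0 of the 28 were higher, beside 2.59% of all tested genes. Their median log2 ratio was 0.17. Ikbke, which encodes IKK-epsilon, the inducible kinase of IRF3 and IRF7, stood at 508 CPM in KO and 262 CPM in WT, a ratio of 1.94 (1.86 to 2.02). Its relative Tbk1 was at 145 CPM in KO and 131 CPM in WT. The nucleic acid sensor genes Zbp1, Ddx58 (RIG-I) and Ifih1 (MDA5), themselves interferon-stimulated, had ratios of 1.77, 1.61 and 1.58. The other 2 higher genes were the adaptor Ticam2 and the kinase Irak2, at ratios of 1.57 and 1.52, and both lost that call with total counts. The receptor gene Tlr7, whose signal reaches Irf5 and Irf7, was at 291 CPM in KO against 365 CPM in WT. Its ratio of 0.797 was the lowest of the list but short of the 1.5-fold rule. The receptor gene Tlr9 went the other way, at 70.8 CPM in KO and 49.8 CPM in WT. Its ratio of 1.42 (1.29 to 1.57) was also short of the rule.

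Few reads were counted for interferon genes. Of 19 interferon genes in the table, 17 had no read in either library, including Ifng. Whether reads of these genes were left uncounted was not tested, so a count of 0 does not show absent RNA. Ifnb1, which encodes interferon beta, had 6 reads in KO and 0 in WT, where a count of 3 would be 0.248 CPM. The interval of its ratio began at 0.922, so a difference was not detectable at this depth. The other interferon gene with a read was Ifnk, with 1 in KO. Of 8 tested interferon receptor and JAK kinase genes, 0 were higher, 0 lower and 8 neither (median log2 ratio -0.01). Over all tested genes, 6.47% were higher and 7.23% lower. Ifnar2, a chain of the type I receptor, was at 158 CPM in KO and 173 CPM in WT, and the kinase gene Tyk2 at 101 CPM in KO against 82.5 CPM in WT.

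Of 15 tested IRF partner genes, 2 were higher, 1 lower and 12 neither, beside 6.47% higher and 7.23% lower over all tested genes. Their median log2 ratio was 0.08. The higher ones were Batf, at 13.9 CPM in KO and 7.04 CPM in WT, and Batf2, at 12.1 CPM in KO and 6.21 CPM in WT, which encode bZIP partners of IRF4, IRF8 and IRF1. Stat2, which encodes a partner of IRF9 in ISGF3, stood just under the rule at a ratio of 1.44 (1.38 to 1.504), above the 1.14 of Irf9. The lower gene was Spib, an ETS partner found in B cells and plasmacytoid dendritic cells, with a ratio of 0.298, from 8 reads in KO against 21 in WT. Among 20 tested negative regulators of IRF activity, 2 were higher, 0 lower and 18 neither (median log2 ratio 0.09). The same shares over all tested genes stand beside that count. Tnfaip3, which encodes the ubiquitin editor A20, was at 184 CPM in KO and 93.5 CPM in WT, and Usp18, a brake on the interferon receptor, at 85.3 CPM in KO and 50.8 CPM in WT.

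Most tested targets of ISGF3 were higher. Of 29 tested genes 19 were higher, 0 lower and 10 neither, beside 6.47% higher and 7.23% lower over all tested genes. All 29 had a log2 ratio above 0, beside 51.8% of all tested genes, and the median was 0.71. At 2-fold or more, 8 were higher, beside 2.59% of all tested genes. With total counts and the 1.5-fold rule, 16 were higher. Rsad2 (viperin) was at 285 CPM in KO and 94.97 CPM in WT, a ratio of 2.997 (2.81 to 3.20), and Cmpk2 at 137 CPM in KO and 46.7 CPM in WT. Mx1 and Ifit2 had ratios of 2.87 and 2.81. The genes of these lists nearest to Irf7 in log2 ratio over the 2 libraries were Dhx58 at 0.72 and Isg20 at 0.71, both of the ISGF3 list. Isg15 was listed with 2 reads in KO and 0 in WT and did not pass the filter. The sources used here do not say how reads were counted, and whether reads of Isg15 were left uncounted was not tested, so its value is not read as a level of expression. This list and the others were written with earlier results of these libraries known, so its direction is no independent evidence.

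Targets of Irf1 and interferon gamma were mixed. Of 24 tested genes 10 were higher, 2 lower and 12 neither, beside 6.47% higher and 7.23% lower over all tested genes. At 2-fold or more 5 were higher, beside 2.59%. Their median log2 ratio was 0.46. With total counts 8 were higher and 2 lower. Among genes averaging 10 CPM or more, 6 were higher and 0 lower. The chemokine gene Cxcl10 was at 13.9 CPM in KO and 5.05 CPM in WT, and Gbp2, a guanylate-binding protein gene, at 63.1 CPM in KO and 29.7 CPM in WT. The lower genes were Nos2, inducible nitric oxide synthase, at 3.37 CPM in KO against 6.95 CPM in WT, and Ciita, the class II transactivator, at 4.41 CPM in KO against 8.94 CPM in WT. B2m, the class I light chain, had a ratio of 1.002 (0.991 to 1.01).

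The lists tied to Irf5, Irf4 and Irf8 were not tested against each other, and each count is read beside the 6.47% of all tested genes that were higher and the 7.23% that were lower. Of 6 tested inflammatory cytokine genes linked to Irf5, 5 were higher and 1 neither (median log2 ratio 1.13). They were Ccl4, at 59.8 CPM in KO and 20.5 CPM in WT, Ccl3, Ccl5, Il1a and Il1b. The classical Irf5 targets Il12b and Il6 were near the floor, with 14 reads of Il12b in each library and 5 reads of Il6 in KO against 10 in WT, while Tnf was listed with 0 reads in both. As for Isg15, that 0 does not show that the RNA was absent. Of 10 tested alternative activation genes linked to Irf4, 0 were higher, 2 lower and 8 neither. Their median log2 ratio was -0.26. Arg1 (arginase) was at 94.7 CPM in KO against 331 CPM in WT, and the chemokine gene Ccl22 at 0.843 CPM in KO against 2.57 CPM in WT. With total counts, Chil3 and Klf4 were counted as lower as well, making 4. Of 15 myeloid genes linked to Irf8, 1 was higher, 2 lower and 12 neither (median log2 ratio -0.13). Cybb, the NADPH oxidase subunit, was at a ratio of 1.55, or 1.48 and no longer counted with total counts. Cebpa and Cebpe, granulocyte and monocyte lineage factors, were lower at ratios of 0.659 and 0.422. Cebpe rested on 21 reads in KO and 39 in WT (ratio interval 0.236 to 0.734). Among genes averaging 10 CPM or more, 1 gene of this list was lower.

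**Figure D5:**
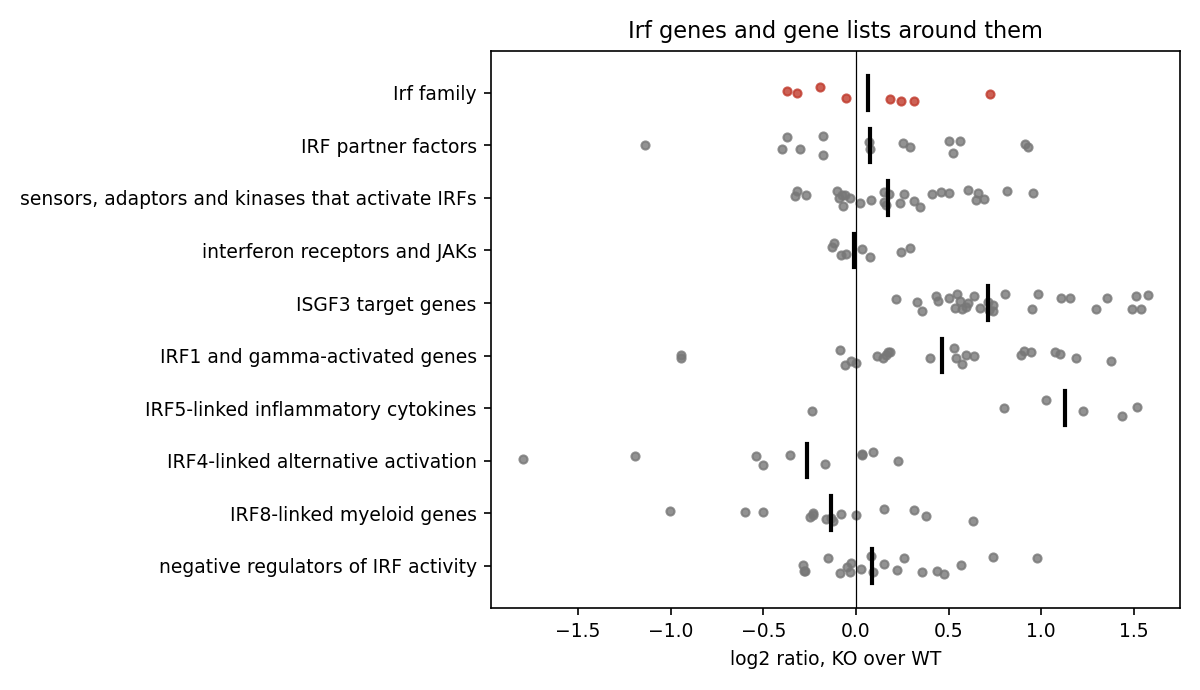
Log2 ratio, KO over WT, of each tested gene (points) in the Irf family (red) and in 9 gene lists around it (grey), with the median of each as a black bar. The medians run from -0.26 for alternative activation genes to 1.13 for inflammatory cytokines, and the Irf family sits at 0.07.

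Genes with an ISRE core before their start were set beside all genes with a promoter, without a test. Of 308 tested genes with GAAANNGAAA in a promoter window, 43 were higher (14.0%) and 20 lower (6.49%), against 6.03% and 6.97% of all 9085 tested genes with a promoter in the RefSeq table. Of those 43, 11 were on the ISGF3 or Irf1 list. Among the 290 genes off both lists, 32 were higher (11.03%) and 20 lower. The median log2 ratio of the 308 was 0.03. The search was added after the values were seen. Matches near 3 of the named targets are shown as examples of the sequence that IRF proteins read, at chr12:26456548-26456587 on the minus strand for Rsad2, chr5:92349078-92349117 on the minus strand for Cxcl10 and chr3:142620589-142620628 on the plus strand for Gbp2, with the matches in capitals. In Rsad2 and Gbp2 the capitals are the reverse complement of GAAANNGAAA.
Rsad2: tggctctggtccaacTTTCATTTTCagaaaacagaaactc
Cxcl10: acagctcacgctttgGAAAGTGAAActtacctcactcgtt
Gbp2: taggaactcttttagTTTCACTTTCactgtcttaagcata
For the named targets only the most 5′ RefSeq start was searched, while the counts above took any listed start of a gene. That window held no match in Cmpk2 or Ifit2. Mx1, Nos2 and Ciita had no window in the RefSeq table and were not searched.

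Irf4 and Irf8 are also made by B cells and dendritic cells, and Irf7 by plasmacytoid dendritic cells, so their markers stand beside these results. Each count of markers is read beside the 6.47% of all tested genes that were higher and the 7.23% that were lower. Of 10 tested B and plasma cell markers 6 were lower in KO and 0 higher. Pax5 and Ebf1, which define B cells, stood at 0.194 and 0.130 CPM in KO against 2.07 and 2.15 CPM in WT. The summed level of that list was 357 CPM in KO and 322 CPM in WT, carried by Sdc1 and other genes that macrophages also express. Of the conventional dendritic cell list, 3 of 10 markers passed the filter. Of these 3, 1 was higher, 1 lower and 1 neither. Flt3 had 2 reads in KO and 1 in WT, and Cd209a had none. Ccr7 was the lower marker, with 17 reads in KO against 47 in WT. The higher marker Itgax, which macrophages also express, was at 193 CPM in KO against 72.0 CPM in WT. The summed level of the list was 436 CPM in KO and 263 CPM in WT. Of 5 tested plasmacytoid markers 3 were lower and 1 higher, at sums of 460.5 CPM in KO and 422 CPM in WT. The higher marker was Bst2, which is also on the ISGF3 list, at 347 CPM in KO and 218 CPM in WT. Bst2 made up most of both sums. The defining gene Siglech had 0 reads in KO and 1 in WT.

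Of 8 monocyte markers, whose cells also use Irf8, 5 were lower and 0 higher in KO, with sums of 407 CPM there and 1132 CPM in WT. That count and those of the next lists stand beside 6.47% higher and 7.23% lower over all tested genes. Fn1 and F13a1 were at ratios of 0.283 and 0.335. Of 9 neutrophil markers 4 were lower and 0 higher, at 504 CPM in KO and 704 CPM in WT. Of 6 tested T and NK cell markers 2 were higher, Cd4 and Cd8a, and 0 lower, at sums of 37.9 CPM in KO and 26.4 CPM in WT, with no read of Trac in either library. With total counts neither Cd4 nor Cd8a was counted as higher. The part of these cells in the Irf4, Irf7 and Irf8 levels was not tested.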

How the data were processed

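Per the labels' protocols, total RNA of 1 KO and 1 WT macrophage culture was sequenced on Illumina libraries. The authors deposited 1 table of raw read counts for 46095 gene symbols. The submitters' processing notes name HISAT2 and GRCm38. The counting program, annotation and strand setting: not given in the sources used here. Effective library sizes came from TMM (edgeR 4.0.16, R 4.3.3). Log2 ratios were computed with 0.5 CPM added on each side. Tested genes averaged 1 CPM or more over both libraries (12495). Ratios without that addition carry exact Clopper-Pearson 95% intervals of the split of reads (scipy 1.17.1), within-library ratios exact conditional intervals and levels exact Poisson intervals. PCR copies were not marked by molecular identifiers, so reads are not independent molecules and these intervals cover counting error only. A count of 3 is 0.194 CPM in the KO library and 0.248 CPM in the WT library. No quasi-likelihood test was possible, since 1 library per genotype leaves no residual degrees of freedom.

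Gene positions and lengths came from GENCODE M21 on GRCm38, used in place of the planned RefSeq exons, and promoter windows from RefSeq (GRCm38.p6). The calculation was checked on simulated counts. The members, the lists and the rules were chosen with earlier results of these data known. The rule for named genes took the 8 members, Tnfaip8l1 and Lyz2, the largest log2 ratios among genes averaging 5 CPM or more (up to 4 from a pathway list, up to 2 from a cell type list), Ifnb1 and Ifng, and the 2 list genes nearest to each member counted as higher or lower. Some genes the rule takes are not described. Other genes were named after their values were seen. Alternatives were total counts, DESeq2 1.42.0 size factors, TMM without stromal markers, a thinned KO library, other filters, added values, folds and gene lengths.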

Additional observations from a re-analysis of the deposited data

How the results depend on the processing

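No paired analysis was possible because there was 1 library of each genotype. Of 269 recomputed values, 229 stayed within their counting interval, within 1.5 times the count or at the same place in the order, 39 moved and 1 reversed. The count of 1 higher and 0 lower Irf genes was the same under every scaling, filter and a rule of a 25% or larger increase or matching decrease, and with a 2-fold rule 0 were higher, beside 2.59% of tested genes. The median log2 ratio of the Irf genes was -0.0056 with total counts, which shift every ratio down, and 0.19 among genes averaging 10 CPM or more, which leaves out Irf4. The numbers of all genes counted as higher and lower were 412 and 223 among genes averaging 10 CPM or more, 323 and 597 with a 2-fold rule, and 1514 and 1427 with that 25% rule, beside 808 and 904. The Irf7 and Irf8 ratios were 1.57 and 0.764 with total counts, outside their counting intervals, in the same direction. With the 2-fold rule, 0 IRF partner genes, 0 negative regulators and 0 myeloid genes linked to Irf8 were higher, beside 2, 2 and 1, and 1 of those myeloid genes was lower, beside 2. Depth limits Irf4 and Ifnb1, and 1 library per genotype limits every comparison.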
